A study of Mus musculus with 3 samples.

Results

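The Ccl1 Penk Lgals7 CD4 T cells are a small set of conventional helper T cells found among the leukocytes of 4T1-luc mammary tumors. They were chosen by detection of transcripts in single cells. A T cell, defined by at least 2 of Cd3d, Cd3e, Cd3g and Trac, was counted as a member when it had no Cd8a, Cd8b1 or Foxp3 molecule and at least 2 of the 4 transcripts Lgals7, Ccl1, Penk and Tnfsf8. Cells with Trdc or with 2 or more of Mki67, Top2a, Birc5 and Cdk1 were left out, so the set holds no cell scored as cycling or as a gamma-delta T cell. The rule found 91 members, out of 1723 T cells and 12472 cells that passed the filters (at least 1500 unique molecular identifiers, or UMIs, at least 300 genes, and at most 20% mitochondrial counts), from 16143 barcodes in all.

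The cells came from 3 single-cell RNA libraries, 1 for each condition, and each library pooled live CD45+ cells of 3 tumors. Each female BALB/c mouse, 6 to 8 weeks old, received 200000 cells of 4T1-luc, a luciferase-marked line of mouse triple-negative mammary carcinoma, in the mammary fat pad, and tumors were taken on day 14. The vehicle library came from tumors with intact p38α in mice given buffered saline. The p38i library came from the same tumors in mice given the p38 inhibitor LY2228820 (ralimetinib) by gavage at 30 mg/kg daily for 10 days from day 4, which reaches host and tumor cells alike. The p38KO library came from 4T1-luc tumors in which the p38α gene Mapk14 had been inactivated by CRISPR in 1 clone, and the labels do not say whether these mice were given saline by gavage. In that group the leukocytes themselves kept an intact gene, and the effect of the deletion cannot be told apart from the effect of using 1 clone. The filters kept 3820 of 4588 vehicle barcodes, 4793 of 6343 p38i barcodes and 3859 of 5212 p38KO barcodes, from libraries of 21675352, 25996832 and 25997636 UMIs.

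Helper T cells act largely through what they secrete and what they display to other cells. Ccl1 encodes a chemokine that draws cells bearing the receptor CCR8, among them regulatory T cells and type 2 helper T cells. Penk encodes proenkephalin, the precursor from which opioid enkephalin peptides are cleaved. Lgals7 encodes galectin-7, a lectin better known from stratified epithelium, and Tnfsf8 encodes CD30 ligand, a member of the tumor necrosis factor family displayed by activated T cells. On GRCm38 (GENCODE M21) Ccl1 lies on chromosome 11 on the minus strand, Penk on the minus strand of chromosome 4 from 4133531 to 4138819, Lgals7 on the plus strand of chromosome 7 from 28863853 to 28866284, and Tnfsf8 on the minus strand of chromosome 4 from 63831308 to 63861347.

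Cd4, which the rule did not use, was detected in most of the members. It was seen in 15 of 17 members of the vehicle library, 20 of 24 of the p38i library and 48 of 50 of the p38KO library, so the label of CD4 T cells held for 83 of 91 cells, and a beta-chain constant transcript was present in all 91. No member barcode was shared between libraries, although 6 barcodes occurred in both vehicle and p38i, 5 in both vehicle and p38KO and 9 in both p38i and p38KO. Members were deeper than the 349 other Cd4-detected T cells, which are Cd8-negative and Foxp3-negative cells with a Cd4 molecule and fewer than 2 of the 4 transcripts. The median member held 5633 UMIs in vehicle, 5658 in p38i and 6522.5 in p38KO, against 4159, 3415 and 4232.5 in the other Cd4-detected T cells. Since a deeper cell shows more of its transcripts, depth enters the rule itself, and the share of members was therefore also measured after thinning.

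Members made up a larger share of the T cells in the p38KO library than in the other libraries. They were 3.28% of T cells in vehicle (17 of 519, exact Clopper-Pearson 95% interval 1.92 to 5.19), 3.68% in p38i (24 of 653, 2.37 to 5.42) and 9.07% in p38KO (50 of 551, 6.81 to 11.8). Among Cd8-negative Foxp3-negative T cells the shares were 8.63% (5.11 to 13.5), 8.03% (5.21 to 11.7) and 17.4% (13.2 to 22.2). Among all kept cells they were 0.445%, 0.501% and 1.3%, in a sort where neutrophils made up 2258, 2759 and 1964 of the kept cells. The vehicle and p38i intervals overlapped almost completely, and the p38KO interval for T cells lay above both.

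With every cell thinned to 1500 UMIs the rule found 6, 9 and 21 members, which were 1.2% (0.442 to 2.59), 1.47% (0.673 to 2.77) and 4% (2.49 to 6.05) of T cells. All kept cells reach that depth, and T cells were called anew on the thinned counts. The order of the libraries stayed as it was, while the p38KO interval now overlapped both others at its lower end. The stricter demand of 3 of the 4 transcripts left 3, 8 and 14 cells, or 0.578%, 1.23% and 2.54% of T cells. With 1 library of pooled mice for each condition no test of the difference exists, and these intervals cover counting error only, not the variation between mice.

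**Figure D1:**
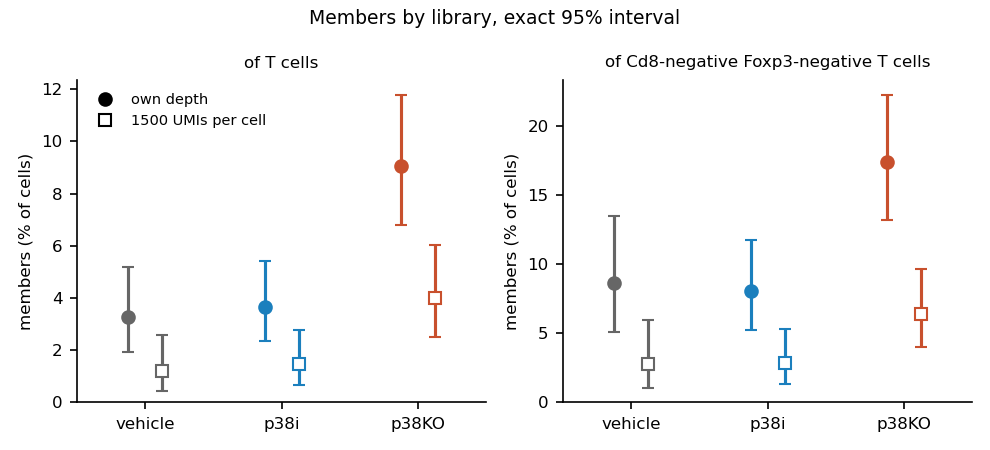
Members as a percentage of T cells and of Cd8-negative Foxp3-negative T cells in the vehicle, p38i and p38KO libraries. Points are shares of cells and bars exact 95% binomial intervals. Open squares give the shares after every cell was thinned to the same depth. The p38KO point is the highest in each panel, at 9.07% of T cells against 3.28% in vehicle and 3.68% in p38i before thinning.

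The 4 transcripts that chose the members are described here without a test. Tnfsf8 and Lgals7 were the common ones. Tnfsf8 was detected in 16, 20 and 44 members from vehicle, p38i and p38KO tumors, with 117, 57 and 175 UMIs. Lgals7 was detected in 12, 15 and 38 members, with 84, 82 and 242 UMIs. Ccl1 was rarer in each library, and Penk in vehicle and p38KO but not in p38i. Ccl1 was detected in 5, 8 and 22 members with 186, 296 and 1255 UMIs, and Penk in 4, 15 and 13 members with 59, 95 and 496 UMIs. In counts per 1000000 summed member UMIs (CPM), Ccl1 stood at 1538 in vehicle (exact Poisson 95% interval 1325 to 1776), 1825 in p38i (1623 to 2046) and 3581 in p38KO (3386 to 3785).

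Single cells carried much of these sums. The richest member held 109 of the 186 Ccl1 UMIs in vehicle, 268 of 296 in p38i and 680 of 1255 in p38KO, and the richest 3 held 95.2%, 97% and 83.1%. For Penk the richest member held 36 of 59, 29 of 95 and 233 of 496 UMIs. In vehicle and p38KO, Lgals7 and Tnfsf8 were spread more evenly than Ccl1 and Penk, while in p38i the richest 3 members held 64.6% of the Lgals7 UMIs and 63.2% of the Penk UMIs. There were 20, 23 and 37 UMIs of Lgals7 and 25, 15 and 37 UMIs of Tnfsf8 in the richest member of each library. The log2 ratio of Ccl1 over vehicle was 0.25 in p38i and 1.22 in p38KO with all members, and -1.87 and 1.38 without the richest cell of each library. For Penk the ratios were 0.26 and 1.54 with all members, and 1.10 and 1.91 without the richest cells.

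The members were not uniform in which transcripts they joined. Lgals7 with Tnfsf8 and neither of the others was the most frequent pattern, in 35 of 91 cells, followed by Ccl1 with Tnfsf8 alone in 13, and by Penk with Tnfsf8 alone and Lgals7 with Ccl1 and Tnfsf8 in 8 each. Exactly 2 transcripts were seen in 66 members, 3 in 20 and all 4 in 5. Ccl1 and Penk were detected together in 11 cells, against 55 for Lgals7 with Tnfsf8. These counts depend on depth, because a transcript present at few copies is often missed in a cell of this size.

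**Figure D2:**
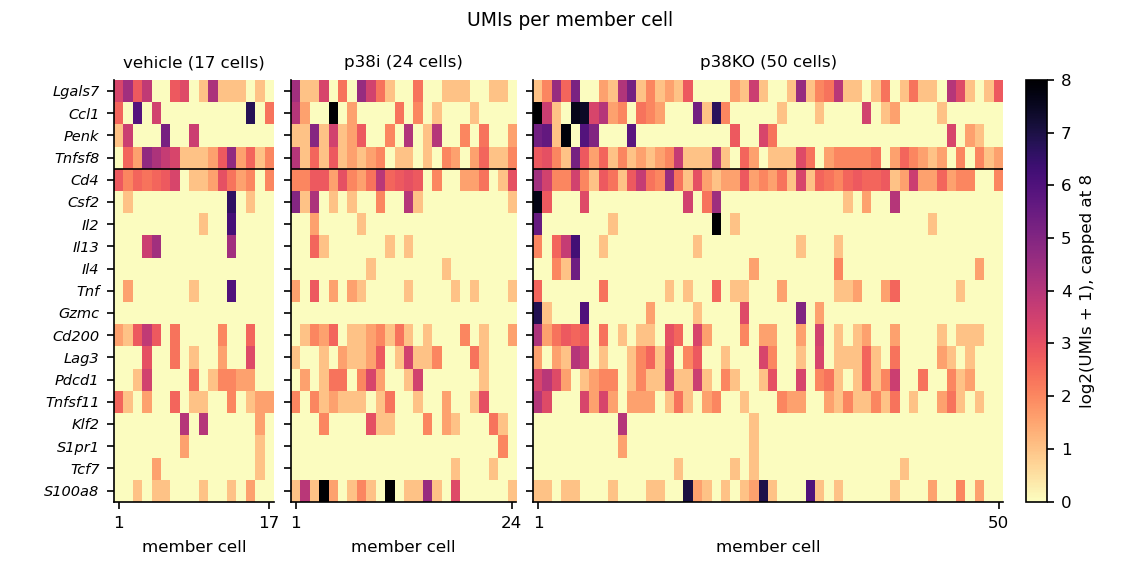
UMIs of each transcript (rows) in each of the 17, 24 and 50 members (columns) from vehicle, p38i and p38KO tumors; colour gives the number of UMIs on a log scale. Ccl1 reached 268 UMIs in 1 p38i cell and 680 in 1 p38KO cell while most members had none, whereas Tnfsf8 and Cd4 were seen at low counts in most cells.

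How much of each transcript lay in the members follows in part from the rule, which chose them by it. Members held 62.4%, 50.7% and 71% of all Ccl1 UMIs of the kept cells of each library, and 39.8%, 45.6% and 45.3% of the Lgals7 UMIs. Their part of the Penk UMIs was smaller in vehicle and p38i, at 20% and 18.7%, than in p38KO, at 59.7%. Neutrophils, which should not make these transcripts, had a Ccl1 UMI in 0.0443%, 0.0725% and 0.255% of cells and a Lgals7 UMI in 0.399%, 0.0725% and 0.356%, at median depths of 2546, 2339 and 2266.5 UMIs. The p38KO neutrophils held 145 Lgals7 UMIs, 139 of them in 1 cell. Cells other than T cells held 1, 5 and 234 Ccl1 UMIs, and in p38KO 150 of the 234 lay in 1 cell and the whole was 13.2% of the library's Ccl1 UMIs. Foxp3-detected T cells had Penk in 4.92%, 16.8% and 12.4% of cells, at 124, 279 and 256 CPM, and CD8 T cells had Ccl1 in 9, 14 and 2 cells, so neither transcript was confined to the members.

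The receptors for these products were nearly undetected in the members. Ccr8, the receptor for CCL1, was found in 1, 0 and 2 members, and Tnfrsf8, which encodes CD30, in 0, 0 and 1. In Foxp3-detected T cells Tnfrsf8 was found in 3, 2 and 5 cells. A count of 0 allows up to 24.8, 18.5 and 8.56 CPM in the members of these libraries, so low levels of either receptor were not detectable at this depth.

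Cells with exactly 1 of the 4 transcripts stood just outside the rule. There were 58, 88 and 80 such Cd8-negative Foxp3-negative T cells, against 14, 16 and 36 with exactly 2. Cd4 was detected in 65.5%, 53.4% and 61.2% of the former and in 85.7%, 75% and 94.4% of the latter, with 49.2%, 42.8% and 47.5% of the 122, 187 and 158 cells that had none of the 4. Pdcd1, which encodes the inhibitory receptor PD-1, was detected in 27.6%, 20.5% and 31.2% of the former and 50%, 31.2% and 61.1% of the latter, with 11.5%, 11.8% and 20.9% of the cells that had none. Tnfrsf4, which encodes the costimulatory receptor OX40, was seen in 70.7%, 68.2% and 66.2% against 85.7%, 87.5% and 94.4%. Cells with 1 transcript had median depths of 4277, 3551 and 4380 UMIs and those with 2 had 5281, 4567.5 and 5862.5, and detection was not compared at equal depth.

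The genes higher in members than in the other Cd4-detected T cells included 4 cytokine genes and 3 genes of inhibitory receptors and their ligands, and those lower included 5 genes of naive and recirculating T cells. Counts were summed for each library and T cell class, and 1 edgeR quasi-likelihood fit over 12 sums, with the library as a term and Benjamini-Hochberg adjustment over all 6412 genes tested, gave 147 genes higher in members (2.29% of those tested) and 141 lower (2.2%). The 3 libraries serve as the repeats, although each is of another condition, and the p-values describe only how alike the difference was over them. The 17 genes that define the classes were not tested. The 4 transcripts were picked in an earlier look at the same cells, so genes that move with them are not independent of the choice of members.

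Cytokine genes were among the largest differences, and each rested on a minority of the members. Il2, the T cell growth factor, stood at 604, 18.5 and 1033 CPM in the members from vehicle, p38i and p38KO tumors and at 11.3, 3.77 and 32.4 CPM in the other Cd4-detected T cells (log2 fold change 4.97, SE 0.55, edgeR adjusted p = 2.47e-04). It came from 9 cells, 2, 2 and 5 by library. Il13, a type 2 cytokine, stood at 422, 49.3 and 282 CPM against 0, 13.2 and 15.4 CPM (4.43, SE 0.56, edgeR adjusted p = 5.08e-04), and was found in 15 members and in 3 of the 349 other cells. Csf2, which encodes the myeloid growth factor GM-CSF, stood at 811, 432 and 773 CPM against 2.27, 104 and 5.12 CPM (4.29, SE 0.62, edgeR adjusted p = 0.00117), in 21 members and 8 other cells. The members were higher in every library for each of these 3 genes, which the rule that named them required, and single cells carried much of them. In p38i, Il2 rested on 3 member UMIs, whose 18.5 CPM lies below the 22.7 CPM that a count of 0 also allows there. Of the p38KO member UMIs, 1 cell held 313 of 362 for Il2, 1 held 204 of 271 for Csf2 and 1 held 75 of 99 for Il13. Without the p38KO library Il13 lost its call (edgeR adjusted p = 0.0598) and Il2 had too few counts to test. None of the 3 could be tested without the richest cell of each sum. Tnf was higher by 2.67 (SE 0.55, edgeR adjusted p = 0.0106), but 62 of its 114 member UMIs lay in 1 vehicle cell, and it lost its call without the vehicle library (1.39, edgeR adjusted p = 0.109) or the p38i library (2.71, edgeR adjusted p = 0.0659).

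Of 14 cytokine and chemokine genes tested, 4 rose in members (Il2, Il13, Csf2 and Tnf) and 1 fell, with a median log2 fold change of 1.42 against -0.02 over all genes tested. The gene that fell was Ccl5, a chemokine of effector and memory cells, at 157, 0 and 14.3 CPM in members against 156, 149 and 249 CPM (-2.23, SE 0.60, edgeR adjusted p = 0.0492), so that it was not lower in the vehicle library. Ifng did not pass the test (1.98, edgeR adjusted p = 0.0926), nor did Lta (1.25, edgeR adjusted p = 0.0501). The lists of genes were drawn up with earlier results of these data known, and their counts are given as description.

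Inhibitory receptors and ligands were the next group. Cd200, which encodes an immunoglobulin family ligand of an inhibitory receptor on myeloid cells, stood at 331, 191 and 282 CPM in members and 49.9, 43.4 and 39.3 CPM in the other cells (2.63, SE 0.34, edgeR adjusted p = 5.32e-04), and was detected in 54.9% of members against 12.3%. Lag3, an inhibitory receptor that binds class II molecules, stood at 182, 216 and 282 CPM against 56.7, 37.7 and 63.2 CPM (2.25, SE 0.55, edgeR adjusted p = 0.0292). Pdcd1 stood at 215, 228 and 377 CPM against 111, 96.2 and 135 CPM (1.34, SE 0.35, edgeR adjusted p = 0.04). The library values of the 2 classes did not overlap for these 3 genes, but how many of all genes tested did the same was not counted. For Cd200 and Lag3 the rule that named them required members to be higher in every library. Lag3 lost its call without the vehicle library (2.38, edgeR adjusted p = 0.103) or the p38i library (2.13, edgeR adjusted p = 0.135), and Pdcd1 without any 1 of the 3, at 1.10 to 1.45 with edgeR adjusted p from 0.056 to 0.153. Havcr2 (1.04, edgeR adjusted p = 0.348) and Ctla4 (0.12, edgeR adjusted p = 0.907) did not pass, so 3 of the 9 genes tested in this list rose, the ligand gene Cd200 and 2 receptor genes, and none fell, with a median of 0.92.

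Among 11 costimulators of the tumor necrosis factor family, 2 rose and none fell. Tnfsf11, which encodes RANK ligand, stood at 190, 173 and 271 CPM in members against 58.9, 37.7 and 88.8 CPM (1.78, SE 0.25, edgeR adjusted p = 9.08e-04) and was detected in 59.3% of members against 15.5%. Tnfrsf9, which encodes the costimulatory receptor 4-1BB, stood at 984, 956 and 685 CPM against 390, 343 and 143 CPM (1.70, SE 0.26, edgeR adjusted p = 0.0016). Of 17 genes induced by T cell receptor signals 2 rose, the transcription factor genes Bhlhe40 (1.49, SE 0.17, edgeR adjusted p = 3.16e-04) and Junb (0.85, SE 0.14, edgeR adjusted p = 0.00249). The median of those 17 was 0.85.

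Genes of naive and recirculating T cells were lower. S1pr1, whose product guides lymphocytes out of tissue into lymph and blood, stood at 24.8, 18.5 and 8.56 CPM in members and 206, 215 and 155 CPM in the other cells (-3.68, SE 0.30, edgeR adjusted p = 3.97e-05), and was seen in 5.49% against 45.6% of cells. Tcf7, which encodes the transcription factor TCF-1 of naive and memory cells, stood at 24.8, 12.3 and 11.4 CPM against 131, 175 and 99 CPM (-3.16, SE 0.44, edgeR adjusted p = 9.19e-04). Klf2, the transcription factor that drives S1pr1, stood at 265, 142 and 45.7 CPM against 678, 494 and 350 CPM (-1.97, SE 0.25, edgeR adjusted p = 5.32e-04) and was seen in 15.4% against 59.3% of cells. In each library the members lay below the other cells for these 3 genes, which the rule that named them required. Of 11 genes in this list 5 fell (also Lef1 and Igfbp4) and none rose, with a median of -1.97. Lef1 (-1.97) lost its call without the vehicle library (edgeR adjusted p = 0.0778) or the p38KO library (edgeR adjusted p = 0.0658).

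**Figure D3:**
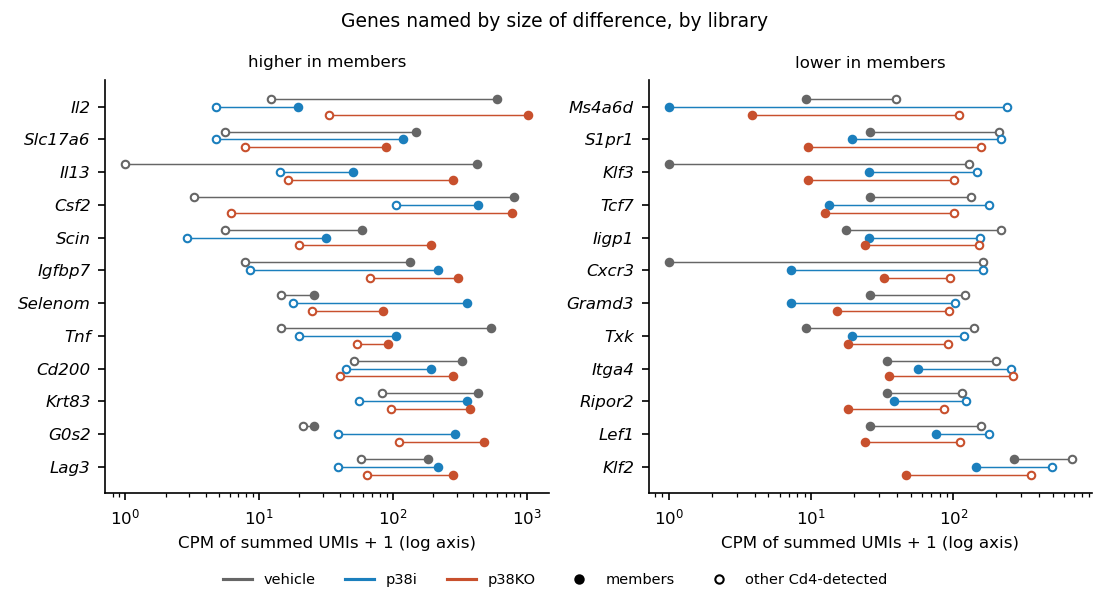
CPM of summed UMIs plus 1, on a log axis, for the 12 genes with the largest positive and the 12 with the largest negative log2 fold change of members over other Cd4-detected T cells; filled points are members, open points the other cells, and lines join the classes within the vehicle, p38i and p38KO libraries. The choice of genes required the same direction in all 3 libraries. Cd200 was higher and S1pr1 lower in members, S1pr1 on 3 member UMIs in each library, while Il2 in p38i rested on 18.5 CPM against 3.77.

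The remaining genes with large differences had varied roles. Slc17a6, which encodes a vesicular glutamate transporter, stood at 149, 117 and 88.5 CPM against 4.53, 3.77 and 6.83 CPM (4.64, SE 0.98, edgeR adjusted p = 0.0127) and was seen in 20.9% of members against 1.15%. The hair keratin gene Krt83 stood at 430, 358 and 377 CPM against 81.6, 54.7 and 95.6 CPM (2.32, SE 0.53, edgeR adjusted p = 0.0211). Igfbp7, which encodes a secreted growth factor binding protein, was seen in 41.8% of members against 5.16% (3.01, SE 0.77, edgeR adjusted p = 0.039). Scin (3.43), which encodes an actin-severing protein, and the selenoprotein gene Selenom (2.90) were seen in 23.1% and 16.5% of members against 2.29% and 7.45%. G0s2, an inhibitor of lipolysis, was 2.28 higher, but 132 of its 217 UMIs lay in 1 member, and it was no longer called without the richest cell of each sum (1.61, edgeR adjusted p = 0.128). G0s2 and Scin had too few counts to test without the cells that had at least 2 markers of another cell type. Slc17a6 and Igfbp7 also lost the call without the vehicle or the p38i library, G0s2 without the p38i or the p38KO library, Krt83 and Selenom without the p38i library, and Scin without the p38KO library. With DESeq2, Slc17a6, Il13, Igfbp7 and G0s2 lost the call, and without the library term Slc17a6, Igfbp7, Krt83, G0s2, Lag3 and Klf2 did. With cells thinned to 1500 UMIs, Cd200 of the 12 genes with the largest positive change and S1pr1, Iigp1, Itga4 and Klf2 of the 12 with the largest negative change kept it, and 6 of the 24 had too few counts to test. With at least 3 of the 4 transcripts, Lag3 (2.10, edgeR adjusted p = 0.146), Tnf (1.88, edgeR adjusted p = 0.0822) and G0s2 lost the call, and Il13 and Scin could not be tested.

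The genes that fell beside those of naive cells included transcripts of other cells. Ms4a6d (-5.33, SE 1.02, edgeR adjusted p = 0.00706) is a gene of myeloid cells that lost its call without the p38KO library (edgeR adjusted p = 0.0916), and 4 of 6 monocyte and macrophage markers tested fell (Apoe, C1qb, Lyz2 and Csf1r), with a median of -2.73. The chemokine receptor gene Cxcr3 (-2.93, SE 0.54, edgeR adjusted p = 0.00578) fell, while Cxcr6, whose product holds T cells in tissue, rose (1.04, SE 0.18, edgeR adjusted p = 0.0046). Cxcr3 was no longer called without the vehicle library (edgeR adjusted p = 0.0551) or the p38i library (edgeR adjusted p = 0.0526). The integrin gene Itga4 (-2.58, SE 0.31, edgeR adjusted p = 3.75e-04), the interferon-induced GTPase gene Iigp1 (-2.94, SE 0.36, edgeR adjusted p = 4.27e-04) and the transcription factor gene Klf3 (-3.41, SE 0.43, edgeR adjusted p = 5.08e-04) also fell.

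Lists close to the rule's own products held few genes that could be tested. Of the 2 genes tested in the list for opioid peptides and their processing, Furin, a protease that cleaves precursor proteins, rose (1.34, SE 0.25, edgeR adjusted p = 0.00669). Among 4 galectin genes tested Lgals1 rose (1.20, SE 0.11, edgeR adjusted p = 6.7e-05), with 3391, 3324 and 2970 CPM in members against 1355, 1328 and 1504 CPM. In the p38 pathway 2 of 9 genes rose, the kinase genes Map2k3 (1.76, SE 0.20, edgeR adjusted p = 2.71e-04) and Mapkapk3 (1.08, SE 0.26, edgeR adjusted p = 0.0283). Mapk14 itself did not pass (-0.16, edgeR adjusted p = 0.861), with 7, 4 and 10 UMIs in the members from vehicle, p38i and p38KO tumors. The deletion of Mapk14 lay in tumor cells, so that gene gives no check of the p38KO label in these cells. The glycolytic genes Ldha, Gapdh and Pgk1 rose among 11 tested, at 0.69, 0.47 and 0.64. The 8 heat shock genes had a median of -0.05.

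The members did not fall into 1 helper class by their transcription factors. Gata3 of type 2 cells was 0.77 higher (edgeR adjusted p = 0.0628) and Tbx21 of type 1 cells 0.15 (edgeR adjusted p = 0.918). Of 6 type 2 genes tested, Il13 rose and none fell. Of 11 type 1 genes, Il2 and Tnf rose and Cxcr3 and Ccl5 fell. Of 4 genes each of type 17 and follicular helper cells none rose, and 2 of the latter fell (Slamf6 and Tcf7).

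Against the 257 Foxp3-detected T cells, the members differed at more genes, with 349 higher (5.44% of 6412) and 285 lower (4.44%) in the same edgeR fit. That split depended on the scaling, since library size alone in place of trimmed-mean scaling gave 237 higher and 421 lower and moved the median over all genes by -0.14. Regulatory T cell genes were lower, 7 of 12 tested and none higher, with a median of -1.78. Ikzf2, which encodes the transcription factor Helios, stood at 24.8, 37 and 85.6 CPM in members against 2054, 1949 and 1871 CPM (-4.86, SE 0.31, edgeR adjusted p = 5.32e-07). Ctla4 (-1.83, SE 0.33, edgeR adjusted p = 0.00223) and Il2ra (-1.73, SE 0.31, edgeR adjusted p = 0.00255) fell as well. This difference is relative to the Foxp3-detected T cells, and Foxp3 itself was used by the rule.

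Of 14 cytokine genes 6 were higher in members than in Foxp3-detected T cells (Il2, Il13, Csf2, Lta, Ifng and Tnf). Il13 had 158 UMIs in members and 1 UMI in the Foxp3-detected T cells, and Csf2 had 439 and 1, so that fold changes of these genes are poorly bounded. Cd40lg, the helper T cell ligand for B cells and dendritic cells, stood at 190, 160 and 148 CPM against 19.6, 5.03 and 10.8 CPM (4.00, SE 0.36, edgeR adjusted p = 1.24e-05). Cxcr6 (3.68, SE 0.22, edgeR adjusted p = 5.32e-07), Cd200 (2.61, SE 0.35, edgeR adjusted p = 3.35e-04) and Pdcd1 (2.17, SE 0.38, edgeR adjusted p = 0.00197) also rose. Klrd1, which encodes the lectin-like receptor CD94, was seen in 57.1% of members against 3.11% (5.01, SE 0.51, edgeR adjusted p = 3.81e-05).

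Against the 639 CD8 T cells, 276 genes were higher in members (4.3% of 6412) and 220 lower (3.43%). Cytotoxic genes were lower, 8 of 10 tested and none higher, with a median of -4.56. Prf1, which encodes perforin, had no UMI in the 91 members, where 3 counts would be 4.74 CPM, against 353, 385 and 73.4 CPM in the CD8 T cells. Nkg7, a granule protein gene, stood at 207, 315 and 516 CPM against 2529, 2640 and 2081 CPM (-2.84, SE 0.22, edgeR adjusted p = 5.23e-06). Cd40lg was higher by 5.18 (SE 0.34, edgeR adjusted p = 1.61e-06), Maf, a transcription factor gene of several helper classes, 3.29 (SE 0.23, edgeR adjusted p = 2.4e-06), and Gata3 1.95 (SE 0.23, edgeR adjusted p = 9.41e-05). Of 6 type 2 genes tested 5 rose, of 11 type 1 genes 3 rose and 2 fell, of 4 follicular helper genes 1 rose and 1 fell, and of 17 T cell receptor response genes 9 rose and none fell. Pdcd1 (0.33, edgeR adjusted p = 0.675) and Lag3 (0.53, edgeR adjusted p = 0.634) did not pass, and their CPM is not shown to differ between members and CD8 T cells. Of 12 regulatory T cell genes tested 6 were higher in members than in CD8 T cells (Tnfrsf18, Nrp1, Il2ra, Ctla4, Capg and Izumo1r) and none lower.

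S1pr1, Klf2 and Tcf7 were lower in members than in CD8 T cells also (-1.93, -1.18 and -2.02), and S1pr1 and Klf2 passed against the Foxp3-detected T cells. The cytokine genes Il2, Il13, Csf2 and Tnf passed against all 3 classes, as did Cd200.

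**Figure D4:**
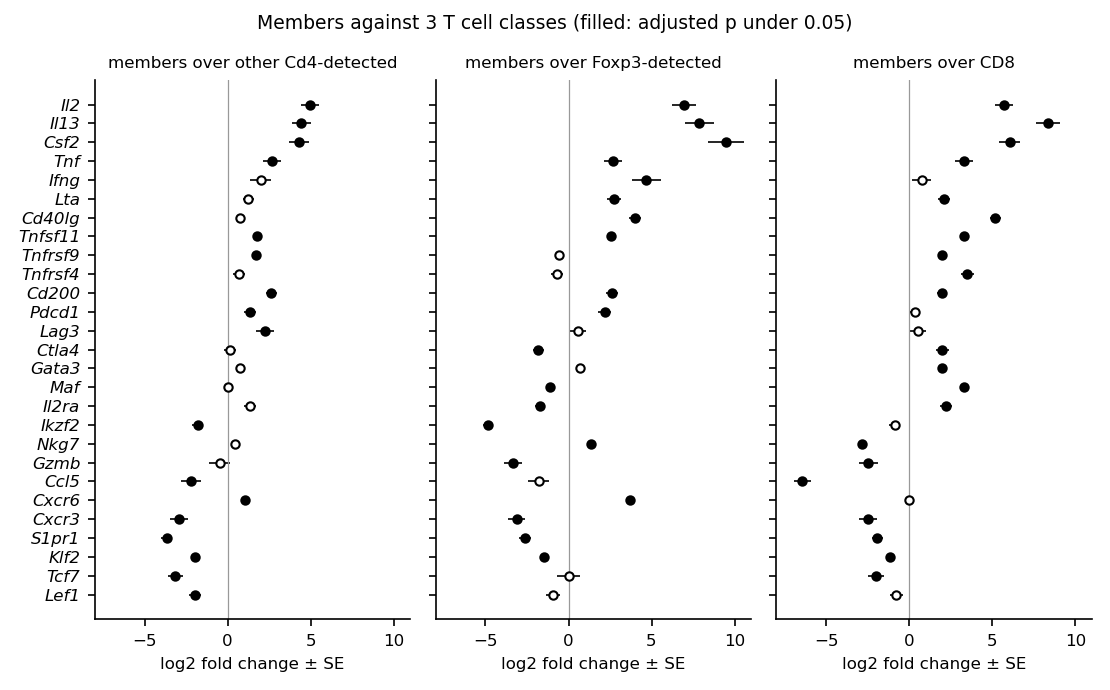
Log2 fold change with its SE for 27 genes in members over other Cd4-detected, Foxp3-detected and CD8 T cells, from 1 edgeR fit; filled points have an adjusted p under 0.05. Il2, Il13, Csf2 and Cd200 were filled on the right of 0 in each panel, Ikzf2 was -4.86 against Foxp3-detected T cells, and S1pr1 was left of 0 throughout.

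Within the members, conditions were compared by their summed counts alone. A gene is called past the fold here when its log2 ratio was at least 0.5 either way, its exact conditional binomial 95% interval left out 0, and it had at least 20 counts over both libraries. These intervals cover counting error in 17, 24 and 50 cells holding 120897, 162154 and 350465 UMIs, and no p-value is given. Both comparisons use the same vehicle library and its 17 cells. In bulk sums of this kind, fewer expressing cells and less RNA per cell cannot be told apart without the counts of cells that stand beside the values.

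For p38i against vehicle, 167 of 2103 genes with enough counts were higher (7.94%) and 112 lower (5.33%). The 6 genes with the largest ratio included some known from myeloid cells. S100a8, a calprotectin subunit of neutrophils, had 7, 1190 and 341 UMIs in vehicle, p38i and p38KO (log2 ratio 6.99 for p38i, 95% interval 5.94 to 8.30), and 1 p38i cell held 796 of the 1190. Wfdc17 had 2, 222 and 54 UMIs (6.37, 4.50 to 9.43). Ccrl2, with 0, 53 and 37 UMIs, was 13.2-fold higher in p38i than a vehicle floor of 3 counts. The lower 95% limit of its log2 ratio was 3.37. Cd14, Cxcl10 and H2-Eb1 each had 0 UMIs in vehicle and 50 in p38i, 12.4-fold higher than that floor (lower 95% limit of the log2 ratio 3.28). For the latter 2 genes 49 of the 50 lay in 1 cell.

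Other cell types' markers moved with these genes. The 5 neutrophil markers summed to 240, 17798 and 2482 CPM in the members from vehicle, p38i and p38KO tumors, with S100a9 the most abundant and Cxcr2 and Retnlg at 0 in vehicle, and to 2378, 1773 and 4700 CPM in the other Cd4-detected T cells. The 4 dendritic cell markers summed to 66.2, 1178 and 165 CPM, led by Cd74, and the 7 monocyte and macrophage markers to 306, 210 and 342 CPM. Among members, 1, 7 and 6 cells had at least 2 markers of another cell type. Without those cells S100a8 was 0.69 in p38i over vehicle, and the genes past the fold were 82 higher and 74 lower. Whether those cells were doublets was not tested. Markers of fibroblasts were at 0 in all members, those of B cells at 2, 0 and 0 UMIs, and those of tumor epithelium at 0, 0 and 2 UMIs.

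Of 12 cytokine and chemokine genes with enough counts 5 were higher in p38i (Csf1, Tgfb1, Ccl3, Ccl4 and Spp1) and 5 lower (Il2, Il13, Csf2, Tnf and Lta). Without the richest cell of each gene 2 of those higher and 2 of those lower stayed so, a tally that leaves out Csf2, which turned higher. Without the cells that had other cell types' markers 1 was higher and 4 lower. In p38i, 1 cell held all 37 Ccl4 UMIs and 1 held 35 of the 41 Ccl3 UMIs. Of the vehicle members, 1 cell held 72 of the 73 Il2 UMIs, 96 of 98 Csf2 UMIs, 62 of 65 Tnf UMIs and 22 of 25 Nr4a1 UMIs. Il2 had 73 UMIs in vehicle and 3 in p38i (-5.03, -7.34 to -3.42), from 2 cells in each. Tnf had 65 and 17 UMIs (-2.36), but was seen in 3 vehicle cells and 9 p38i cells, and was 1.53 higher without the richest cell of each library. Csf2, in 3 and 9 cells, had 98 and 70 UMIs (-0.91, -1.37 to -0.45), and was 3.92 without the richest cells. Il13, in 3 and 4 cells, had 51 and 8 UMIs (-3.10, -4.38 to -2.01), and was -3.80 without the richest cells. Among members with at least 3 of the 4 transcripts no vehicle cell had an Il13 UMI, so the ratio there could not be measured. Tomm22, which encodes a mitochondrial import receptor and is expressed by all cells, had 33 UMIs in 13 of 17 vehicle cells and 6 UMIs in 5 of 24 p38i cells (-2.88, -4.43 to -1.61).

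For p38KO against vehicle, 233 of 3418 genes with enough counts were higher (6.82%) and 132 lower (3.86%). Gzmc, which encodes granzyme C, had no UMI in the vehicle and p38i members and 222 UMIs in 8 p38KO members, at least 25.5-fold higher than the vehicle floor of 3 counts, and 113 of them lay in 1 cell. Ccdc80, which encodes an extracellular matrix protein, had 0, 0 and 69 UMIs, in 13 p38KO cells (7.93-fold over the floor, lower log2 limit 2.65). Ly6g5b had 0, 6 and 50 UMIs, in 0, 3 and 20 cells (5.75-fold, lower log2 limit 2.17). Ccdc80 and Ly6g5b were the more evenly spread, with 19 and 7 UMIs in the richest cell. Il4, a type 2 cytokine, had 0, 2 and 52 UMIs, 41 of them in 1 cell. Il1b had 1, 92 and 166 UMIs (5.84, 3.34 to 11.2), and 2.26 without the cells that had other cell types' markers. The smaller number of vehicle cells limits what a count of 0 there can say, since 0 UMIs there allow up to 24.8 CPM, against 18.5 CPM in p38i and 8.56 CPM in p38KO.

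Ifng, the type 1 cytokine gene, had 4, 16 and 187 UMIs in 4, 6 and 13 cells (4.01, 2.63 to 5.90), and 3.93 without the richest cell. Of 8 type 1 genes with enough counts 2 were higher in p38KO (Ifng and Il2) and 2 lower (Ccl5 and Tnf), with a median of -0.40. Of 16 cytokine and chemokine genes with enough counts 10 were higher and 3 lower, and 8 and 1 of these stayed so without the richest cell of each gene. That tally leaves out Csf2, which was -0.07 with all cells and 3.54 without the richest. Of 7 cytotoxic genes 4 were higher and 1 lower (Ccl5), the higher ones including Nkg7 with 25, 51 and 181 UMIs (1.32, 0.71 to 1.99) and Klrd1 with 33, 76 and 194 UMIs (1.02, 0.48 to 1.60), while Gzmb, which had 61 of its 62 UMIs in 1 cell, was -0.61 without the richest cells. Pdcd1 had 26, 37 and 132 UMIs in 8, 10 and 34 cells (0.81, 0.19 to 1.47 for p38KO, and 0.09, -0.68 to 0.87 for p38i). Of 7 genes in the list of inhibitory receptors and ligands with enough counts 3 were higher in p38KO (Pdcd1, Havcr2 and Entpd1) and 1 lower, Ctla4, with 28, 25 and 44 UMIs (-0.88, -1.60 to -0.15). Without the cells that had other cell types' markers only Pdcd1 of these was past the fold. Without the richest cells the 3 higher genes stayed past it, but Ctla4, at -0.53, did not. Cxcr6 had 76, 129 and 429 UMIs (0.96, 0.61 to 1.33), and Lag3 22, 35 and 99 UMIs (0.63, -0.04 to 1.37), which did not pass. The median over all genes was 0.09 for p38KO and -0.01 for p38i.

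Genes lower in p38KO included Zfp36l2, an RNA-binding protein gene that restrains effector cytokine transcripts. It had 66 UMIs in 16 of 17 vehicle cells, 35 UMIs in 14 of 24 p38i cells and 43 UMIs in 23 of 50 p38KO cells, with log2 ratios of -2.15 (-2.74 to -1.58) for p38KO and -1.34 (-1.97 to -0.73) for p38i. Klf2 had 32, 23 and 16 UMIs in 3, 9 and 2 cells (-2.54, -3.50 to -1.63 for p38KO), with 15 of the 16 p38KO UMIs in 1 cell. It was -5.69 without the richest cells, which left 1 p38KO UMI. Among members with at least 3 of the 4 transcripts no vehicle cell had a Klf2 UMI and 1 p38KO cell held 15. The ratio there could not be measured. Ccl5 had 19, 0 and 5 UMIs, 17 of the vehicle UMIs in 1 cell (-3.46 for p38KO). Nr4a1, an immediate early gene of T cell receptor signals, had 25, 3 and 6 UMIs (-3.59, -5.17 to -2.27 for p38KO), and -1.57 without the richest cells, which leaves out the vehicle cell with 22 of the 25. Tnf was -2.56 for p38KO with all cells and 1.65 without the richest.

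Of 6 heat shock genes with enough counts 5 were lower in p38i and none higher (median -1.08), and of 7 in p38KO 4 were lower and none higher (median -0.84). Hspa1b, an inducible heat shock protein, had 33, 12 and 12 UMIs in 3, 4 and 4 cells (-1.88, -2.97 to -0.89 for p38i, and -2.99 for p38KO), whereas Hspa8, the constitutive one, had 162, 149 and 389 UMIs (-0.54, -0.88 to -0.21, and -0.27, -0.54 to 0.00). Without the richest cell of each gene 4 of these stayed lower in p38i and 2 in p38KO. Of T cell receptor response genes 5 of 12 were lower in p38i and 5 of 16 in p38KO, and none was higher. Without the richest cells 1 and 2 of these stayed lower, and without the cells that had other cell types' markers 5 and 6 genes of this list were lower. Over all genes with enough counts 5.33% were lower in p38i and 3.86% in p38KO. No p38 pathway gene of 7 with enough counts was past the fold in either comparison.

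The 4 transcripts of the rule stand beside these as values only. Ccl1 was 0.25 and 1.22 (log2 ratio of p38i and p38KO over vehicle), Penk 0.26 and 1.54, Lgals7 -0.46 and -0.01, and Tnfsf8 -1.46 and -0.95. Cd4 was 0.18 (-0.30 to 0.68) and 0.37 (-0.04 to 0.80), and its level did not differ between libraries beyond counting error.

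**Figure D5:**
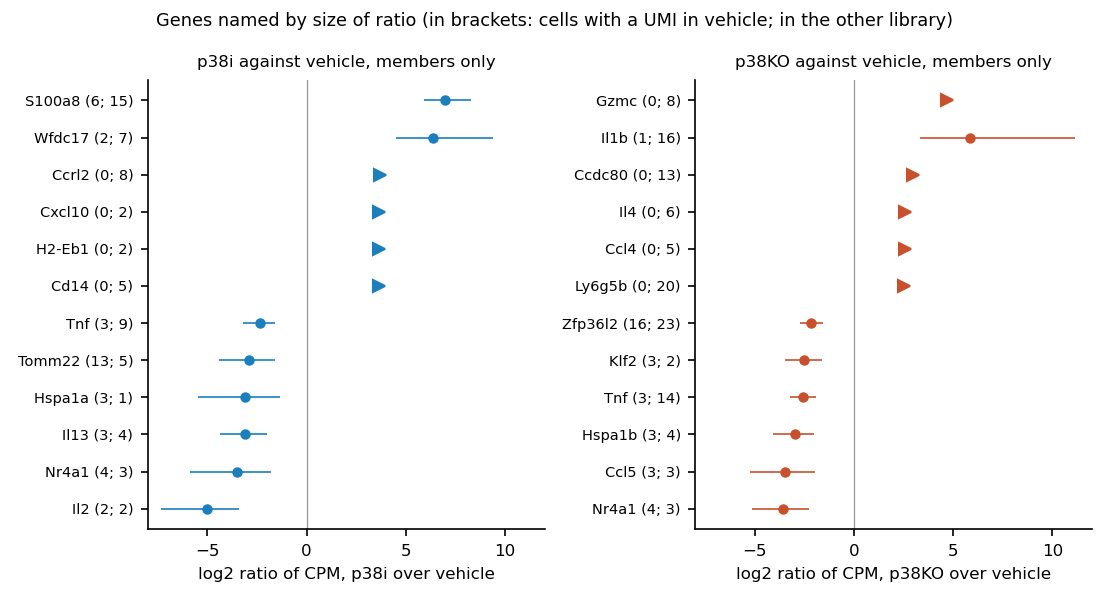
Log2 ratio of CPM in members of p38i (left) and p38KO (right) over vehicle with exact 95% intervals for the 6 genes with the largest positive and the 6 with the largest negative ratio. Arrowheads, drawn without interval, mark ratios to a floor of 3 counts where a library had 0. Brackets give the cells with a UMI in vehicle and in the other library. S100a8 led in p38i at 6.99 and Gzmc in p38KO, while Zfp36l2 had a narrow interval, -2.74 to -1.58.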

How the data were processed

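Gene by cell tables of UMI counts, as the authors deposited them, were made with Cell Ranger 6.0.0 per the file headers and aligned to mm10 per the labels; the submitters' notes also name R 4.2.1 and Seurat 5. No annotation of cells was used, so classes were rebuilt from marker genes and may differ from those of the study. The members and the gene lists were chosen with earlier results of these data known. No doublet caller was run.

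Counts were read with Python 3.11.15 (numpy 2.4.6, pandas 2.3.3, scipy 1.17.1). They were summed for 3 libraries and 4 classes and tested with edgeR 4.0.16 on R 4.3.3 (limma 3.58.1, trimmed-mean scaling, filterByExpr, library as a term), with 6 residual degrees of freedom. The fit was tested on simulated data. Named genes were the 12 largest log2 fold changes each way among genes with adjusted p under 0.05, the same direction in all 3 libraries and at least 100 CPM, without ribosomal, mitochondrial, predicted, receptor segment and rule genes. Other genes named came from the lists. Conditions were compared by summed CPM, by the 6 largest ratios each way. Alternatives were DESeq2 1.42.0, other filters and scaling, thinning and leaving out a library. The labels and the study's methods name different kit versions and numbers of sorted cells. Some genes are not reported here.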

Additional observations from a re-analysis of the deposited data

Results flagged for a closer look

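Il2 went in opposite directions in the members of the 2 blocked conditions, with log2 ratios over vehicle of -5.03 in p38i and 0.77 in p38KO. The difference between them was not tested. Of its UMIs, 72 of 73 in vehicle and 313 of 362 in p38KO lay in 1 cell each, and without the richest cell of each library the ratios were -0.35 and 4.06.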

How the results depend on the processing

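No paired analysis was possible between conditions because each has 1 library, while the class comparisons already pair the classes through the library term. Numbers given as a pair are genes higher and lower in members, or in the blocked library.

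Against the other Cd4-detected T cells the 147 and 141 genes became 238 and 332 without the low-count filter, 87 and 87 without the library term, 14 and 44 with cells thinned to 1500 UMIs (2163 genes tested), and 250 and 236 against cells with or without Cd4. With 3 of the 4 transcripts 88 were higher, and without cells bearing other cell types' markers 224. Leaving out 1 library gave 50 to 63 higher and 47 to 84 lower. Against Foxp3-detected T cells thinning gave 56 and 79, no filter 473 lower, and leaving out 1 library 143 to 238 higher and 96 to 265 lower. Against CD8 T cells thinning gave 31 and 89, no filter 475 lower, and leaving out 1 library 104 to 184 higher and 72 to 160 lower.

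For p38i, thinning gave 13 and 12, 3 of the 4 transcripts 38 and 30, no cells with other markers 82 and 74, at least 50 counts 73 and 69, at least 1 count 282 and 188, and the mean of the cells' CPM 450 and 404. For p38KO, thinning gave 15 and 15, 3 of the 4 transcripts 62 and 66, at least 50 counts 128 higher, at least 1 count 216 lower, and the mean of the cells' CPM 950 and 519. A log2 ratio of at least 1 left 61 lower in p38i and 59 in p38KO, and leaving out the richest cell of each gene, chosen after seeing the data as was the scaling by library size for the other 2 classes, left 68 and 64 lower.

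As a share of kept cells, members were 0.157%, 0.188% and 0.544% in vehicle, p38i and p38KO after thinning, 0.0785%, 0.167% and 0.363% with 3 of the 4 transcripts, and 0.959% in p38KO with no filter on cells. As a share of T cells they were 1.2%, 1.47% and 4%, and 0.578%, 1.23% and 2.54%. Of Cd8-negative Foxp3-negative T cells they were 2.79%, 2.83% and 6.42%, and 1.52%, 2.68% and 4.86%. The p38KO share stayed the highest under each of these.

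Against the other Cd4-detected T cells Cd200, S1pr1, Iigp1 and Itga4 kept direction and call in every alternative, as did Tcf7 except thinned, where it could not be tested. Il2, Il13, Csf2, Scin and Selenom had too few counts to test without the richest cells, and Il2 also thinned or without p38KO. Against the same cells directions reversed, cause not tested, for G0s2 (-0.30 thinned, -0.53 with 3 transcripts), Tnf (-0.018 thinned), Il2ra (1.35, edgeR adjusted p = 0.0543, and -1.70 thinned), Havcr2 (-0.063 with 3 transcripts), Mapk14 (-0.55 to 0.16 without 1 library, 0.16 without p38KO) and Tbx21 (-1.46 with 3 transcripts, -0.069 to 0.44 without 1 library). Ctla4 was -0.21 without the library term, -0.83 thinned, -1.06 with 3 transcripts, -0.45 without cells bearing other markers, and -0.13 to 0.63 without 1 library. Between conditions, with 3 transcripts Tnf was 0.97 in p38i. The values there for Il13 in p38i, 1.86, and Klf2 in p38KO, 2.25, are not measured ratios and show no reversal. The 3 vehicle cells in that setting had no UMI of either gene, and 1 p38KO cell held 15 Klf2 UMIs. Without the richest cells Tnf was 1.53 in p38i and 1.65 in p38KO, and Csf2 3.92 (-0.91 with all cells) and 3.54 (-0.07). The 17 vehicle members limit the precision of every condition value.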

Other observations

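The 13 members with at least 10 Ccl1 UMIs, 3 in vehicle, 2 in p38i and 8 in p38KO, were set beside the other 78 as a description, since they were chosen after the values were seen. Csf2 was detected in 8 of the 13 (61.5%, exact 95% interval 31.6 to 86.1) and in 13 of the 78 (16.7%, 9.18 to 26.8), and Il13 in 5 (38.5%) and 10 (12.8%). Cd200 was detected in 11 (84.6%) and 39 (50%). Klf2 was seen in 0 of the 13 (interval up to 24.7%) and in 14 of the 78. The cells with much Ccl1 were deeper, at a median of 8564 UMIs against 5929. In p38KO the richest Ccl1 cell, with 680 UMIs, also held 204 of the 271 Csf2 UMIs and 113 of the 222 Gzmc UMIs, and a cell with 194 Ccl1 UMIs held 75 of the 99 Il13 UMIs and 41 of the 52 Il4 UMIs.

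T cell receptor beta variable segments were seen in 6 of 17, 2 of 24 and 13 of 50 members, as 4, 2 and 7 different segments, with Trbv2 in 2, 0 and 4 cells. These numbers were too small to show whether members share a clone.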
